A study of Sus scrofa with 6 samples.

Results

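The genes described here are 31 neuronal and synaptic genes, chosen as a list of gene symbols and followed through the openness of their chromatin in somites and myotomes of pig embryos. A window was drawn for each gene, spanning the gene and the 2 kb upstream in the RefSeq annotation of Sscrofa11.1, and the window received the counts of every called peak that it overlapped. Of the 31 genes, 29 had a window on a chromosome, out of 27785 gene windows in the annotation. TUBB3 matched no gene symbol of the annotation and GRIN1 lay on an unplaced scaffold that held no peak, so neither was analysed here, and SCN2A was matched to LOC100515171 by its product name. By role the 29 genes comprised 3 RNA-binding, 3 cytoskeletal, 6 vesicle and adhesion, 6 transmitter, 6 receptor and kinase and 4 channel and transporter genes and 1 transcription factor.

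The study profiled open chromatin of single cells with the Tn5 transposase (scATAC-seq) in 6 libraries, 1 for each of 3 stages and 2 breeds. Somites came from embryos of day 18 (E18) or day 21 (E21), whereas the third stage, day 28 (E28), was represented by myotomes, so stage and tissue cannot be told apart at E28. The breeds were Tibetan pigs (ZZ) and the Duroc×Tibetan cross (DZ), without any treatment or transgene. Each library pooled the somites or myotomes of 5 embryos of the same sow, with 1 pool per stage and breed. A p-value below rests on how far the pools depart from additive effects of stage and breed, and not on the spread between animals. Differences between sows cannot be told apart from those of stage and breed.

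Neurons are not a product of the somite. They form in the neural tube, which lies between the paired rows of somites, and in the ganglia that arise from neural crest, and motor axons grow from the neural tube into the myotome. In non-neuronal cells many of these genes are held silent by REST, a zinc finger repressor that binds the RE1 element. A peak at one of these genes reports openness of DNA and not synthesis of RNA.

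The RE1 core was searched because it is the sequence element that the members are best known to share. The core was spelled CAGCACC followed after any 2 bases by GGACAG, on both strands. It was found 848 times on the chromosomes. Of the 78533 regions in which every library had a peak (shared regions, made by merging overlapping peaks), 462 held a core (0.588%). Of the 191 shared regions in member windows 6 did (3.14%), each at a different gene. Such a region lay in 6 of the 29 member windows (20.7%) and in 334 of the 22989 tested windows (1.45%), but member windows were longer, with a median of 108 kb against 23.2 kb. The 6 sites are given below 5′ to 3′ on the strand of the core, with 6 flanking bases on either side and the fixed bases of the core in capitals.
GRIA2, chr8:46078020-46078046, minus strand, 89 bases before the start site: gactttCAGCACCgcGGACAGcgcccc
SLC17A6, chr2:37138551-37138577, plus strand, exon outside the coding sequence: atggttCAGCACCacGGACAGagtaag
NEFM, chr14:8960976-8961002, minus strand, exon outside the coding sequence: cgccggCAGCACCaaGGACAGcgccca
SLC12A5, chr17:48199800-48199826, minus strand, intron: gcattcCAGCACCtcGGACAGcgcctg
SNAP25, chr17:19142283-19142309, plus strand, intron: cgcactCAGCACCctGGACAGcaacac
CACNA1A, chr2:65653657-65653683, plus strand, intron: gcgtttCAGCACCgcGGACAGagccaa
A match is a description of the letters and does not show that REST was bound.

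The upstream sequence of SLC12A5 is shown because its start-site region lost the largest part of its counts among member regions of stable covered length, and that of GRIA2 because it holds an RE1 core and showed no such loss. Each run covers the 250 bases before the RefSeq start site on the gene's strand, and capitals mark the RE1 core and the E-boxes CAGCTG and CATCTG, the latter being bound by myogenic and proneural factors, on either strand.
SLC12A5, chr17:48191822-48192071, plus strand: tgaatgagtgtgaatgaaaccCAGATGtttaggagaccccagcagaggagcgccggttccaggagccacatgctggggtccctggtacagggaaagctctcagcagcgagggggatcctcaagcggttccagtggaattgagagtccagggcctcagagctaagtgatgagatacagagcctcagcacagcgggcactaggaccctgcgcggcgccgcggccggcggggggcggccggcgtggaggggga
GRIA2, chr8:46077872-46078121, plus strand: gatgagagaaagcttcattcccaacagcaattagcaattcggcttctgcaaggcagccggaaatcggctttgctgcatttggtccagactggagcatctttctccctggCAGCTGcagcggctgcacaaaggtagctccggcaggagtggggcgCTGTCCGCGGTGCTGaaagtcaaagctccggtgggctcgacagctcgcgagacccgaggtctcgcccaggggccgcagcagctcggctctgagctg
Over promoters of 300 bases (250 before and 50 after the start), an RE1 core was found in 1 of 29 members, that of GRIA2, and in 11 of 19526 protein-coding genes (0.0563%). CAGCTG was found in 7 of 29 member promoters (24.1%) against 16.6% of all, and CATCTG in 2 (6.90%) against 14.3%. The median GC content was 63.0% in member promoters and 58.7% in all.

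The libraries held 89816504 to 133037579 counts in 9286 to 11243 kept cells, and values are given in CPM, the counts of each library scaled to the same total of kept counts. Peaks were called separately in each library, and their covered length shrank with stage, from 191 and 168 Mb at E18 (ZZ and DZ) to 147 and 158 Mb at E21, and then 102 and 108 Mb at E28. A count exists only inside a called peak, so covered length is given for all members together and beside some of the genes and regions, and values with covered length as an offset are given where named. Between 135 and 189 cell barcodes were shared by any pair of the libraries. In the somite and myogenic marker list, 2 of 12 windows rose and 2 fell from E18 to E28, and none was at 0 in any library. MYOG, a factor of terminal myogenic differentiation, rose by 1.5 on the log2 scale (SE 0.224, edgeR quasi-likelihood adjusted p = 0.00876), and PAX3, of the dermomyotome, changed by -0.86 (SE 0.120, adjusted p = 0.00782). Per covered base the median change of all windows was 0.53, with 65.0% of them called higher. On that scale MYOG was again higher (1.80, adjusted p = 1.87e-09), whereas PAX3 turned to 0.29 (adjusted p = 0.0410), below the median.

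Accessibility counts at the neuronal and synaptic genes were lower at E28 than at E18. Of the 29 member windows 20 fell and 0 rose (edgeR quasi-likelihood test, Benjamini-Hochberg adjusted p under 0.05 over 22989 windows), while over all windows 42.0% were called, 22.8% lower and 19.2% higher. The median log2 fold change was -0.59 over the members and -0.07 over all windows, and 24 members lay below the latter. All member windows together took 0.225% (ZZ) and 0.234% (DZ) of kept counts at E18, 0.211% and 0.190% at E21, then 0.165% and 0.155% at E28. In bulk sums such as these, fewer cells of a type and less accessibility per cell cannot be told apart. The covered length fell with the counts, from 536 and 487 kb over the 29 windows at E18 to 230 and 237 kb at E28, and it was shorter at E28 in 28 of 29 members. The median ratio of covered length, E28 over E18, was 0.497 in members and 0.652 in all tested windows.

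**Figure D1:**
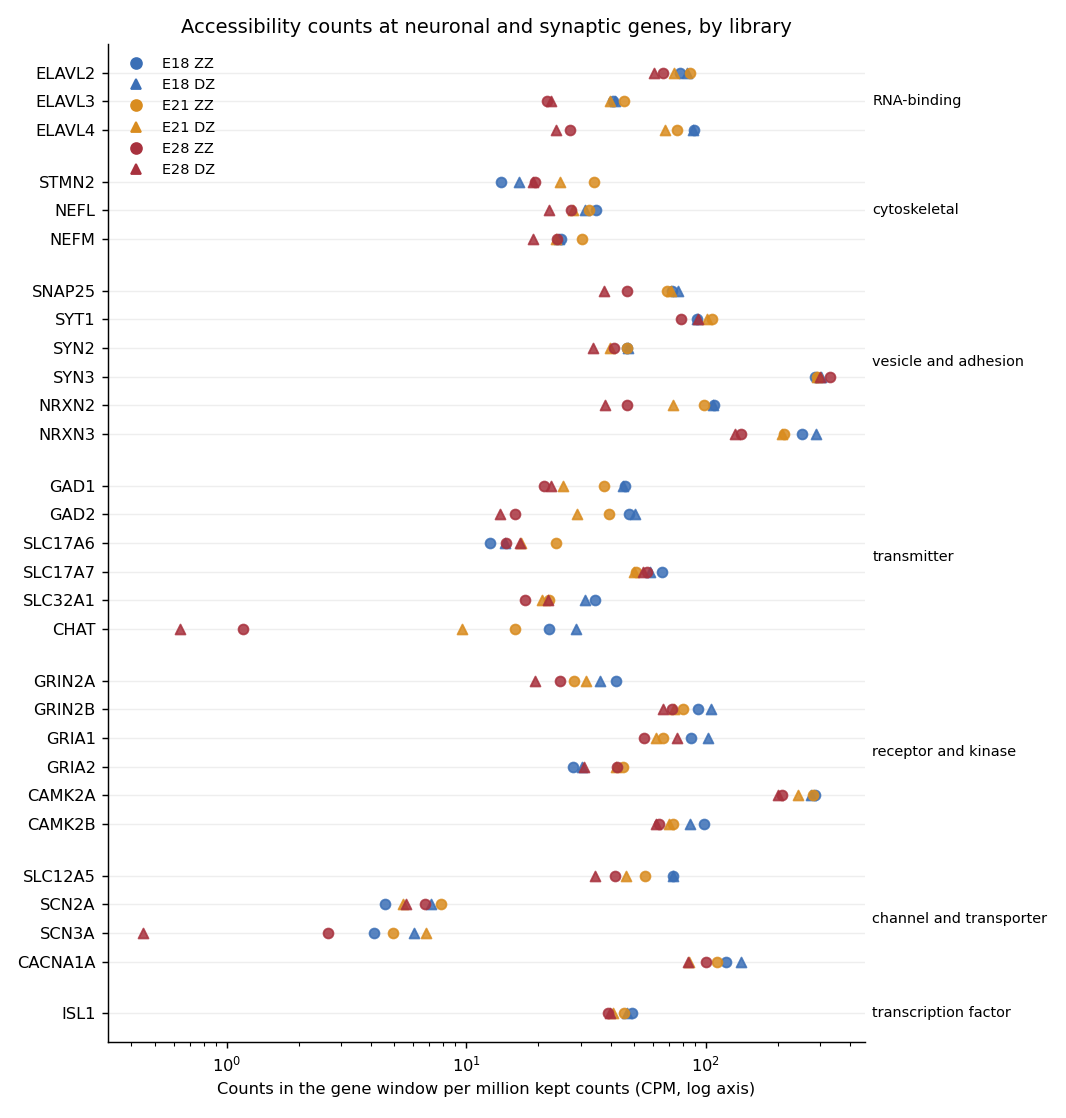
CPM in each member window (log axis), 1 point per library, coloured by stage and shaped by breed, with genes grouped by role. The red E28 points lie to the left of the blue E18 points in most rows, furthest for CHAT, and to the right for STMN2, SLC17A6 and GRIA2, which did not pass the test.

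When covered length entered the fit as an offset, so that the test asked for counts per covered base, the median of all windows moved to 0.53 on the log2 scale and 16 members were called higher and 1 lower, beside 65.0% higher and 2.29% lower of 20480 windows tested. Relative to that median 17 of 29 members lay below and the median member was at 0.39. The part of the shorter covered length in the fall of counts was not tested. SLC12A5 was the member called lower under both fits.

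**Figure D2:**
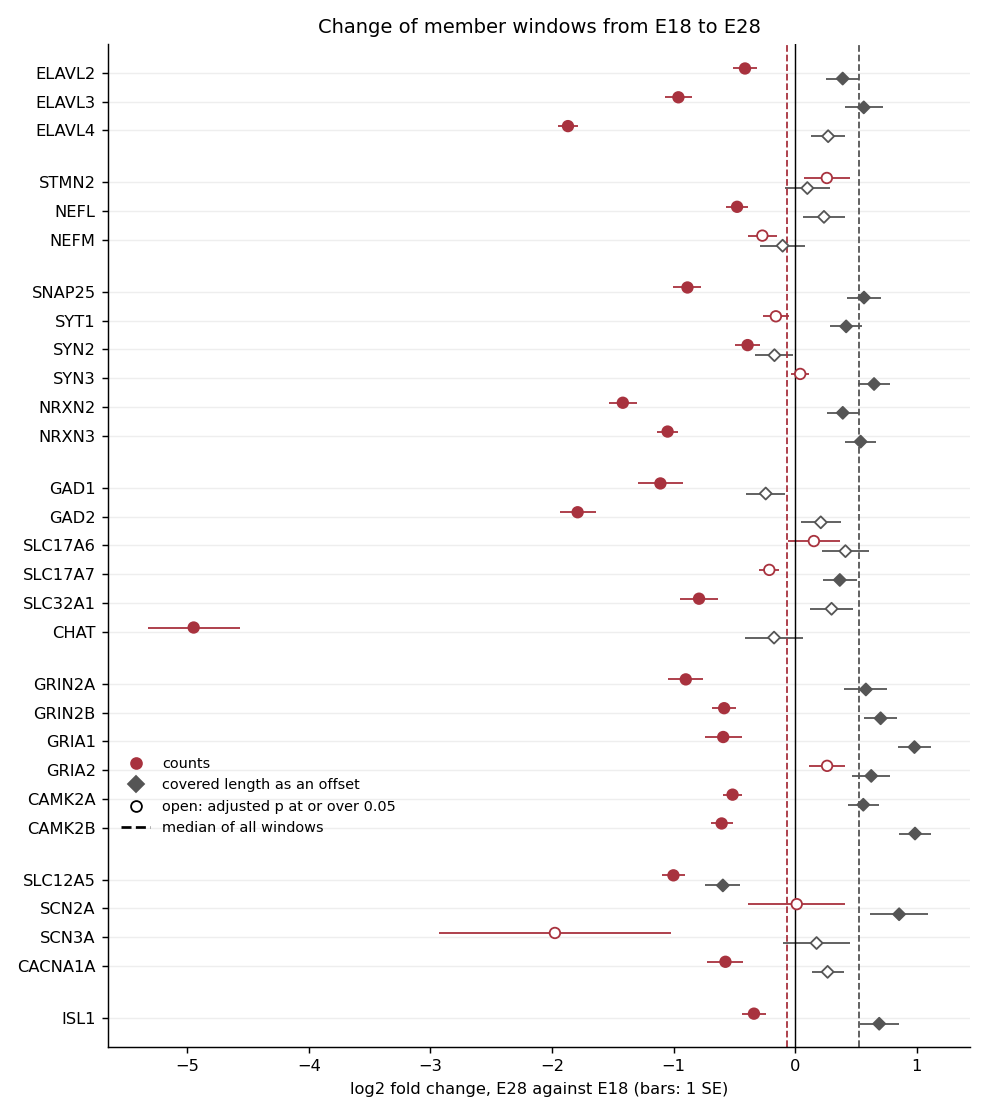
The log2 fold change of each member window from E18 to E28 with 1 SE, from counts (red circles) and with covered length as an offset (grey diamonds). Filled symbols passed the adjusted p of 0.05 and dashed lines mark the median of all windows, at -0.07 and 0.53. SLC12A5 is filled and negative in both.

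Leaving out libraries changed how many members passed. Fewer members were called whichever library was left out, fewest without E18 DZ and next fewest without E18 ZZ. The share of all windows called was likewise lowest without E18 DZ and next lowest without E18 ZZ. Each of these fits left a stage with 1 library. ELAVL4, NRXN2, NRXN3, GAD2, CHAT and SLC12A5 were still called lower without E18 DZ, and GRIA2 was called higher without E28 DZ. DESeq2 called 22 lower, beside 32.8% of all windows lower and 28.7% higher. The sign of the change was the same in both breeds for 26 members, negative for 23 and positive for 3. This was not compared with the share over all windows.

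The RNA-binding genes are the neuronal ELAV proteins (HuB, HuC and HuD), which bind AU-rich sequence in messenger RNA and stabilize it as neurons differentiate. All 3 fell. ELAVL4 (HuD, chr6:161784146-161928953) had 88.8 CPM in E18 ZZ and 88.7 in E18 DZ, 75.5 and 67.4 at E21, then 27.2 and 23.6 at E28. The E28 libraries were below the other 4, which also fell in order of stage without overlap. The log2 fold change from E18 to E28 was -1.87 (SE 0.0842, adjusted p = 0.00224) with covered length of 23611 and 19150 bases at E18 and 4789 and 4750 at E28, and with the offset it was 0.27 (adjusted p = 0.0893). ELAVL3 (HuC, chr2:70114475-70134348) held 41.1 and 41.7 CPM at E18, 45.4 and 40.0 at E21 and then 21.6 and 22.7 at E28. Its counts overlapped between E18 and E21 and were lower at E28, by -0.96 against E18 (SE 0.113, adjusted p = 0.00594). ELAVL2 (HuB) changed by -0.41 (SE 0.100, adjusted p = 0.0272). The start-site region of ELAVL4, chr6:161927716-161929861, had 24.7 and 26.2 CPM at E18, 16.7 and 14.8 at E21 and then 9.44 and 8.88 at E28. It fell without overlap of stages (-1.52, SE 0.151, adjusted p = 0.00318) and also with the offset (-0.80, adjusted p = 5.98e-04). That of ELAVL3, which reaches an exon of ZNF653, changed by -0.57 (SE 0.0960, adjusted p = 0.00884) and by 0.28 with the offset.

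Regions of ELAVL2 differed in direction. Its start-site region, chr1:198962756-198965325, went from 16.9 and 18.6 CPM at E18 through 16.2 and 10.1 at E21 to 3.11 and 3.27 at E28. This fall of -2.52 (SE 0.268, adjusted p = 0.00344) came with covered length of 2564 and 2532 bases at E18 and 567 and 870 at E28, and it remained with the offset (-0.68, adjusted p = 0.0108). A region 24.6 kb downstream, chr1:198987381-198990035, rose from 30.9 and 33.0 CPM to 44.9 and 41.4 (0.38 on the log2 scale, SE 0.0973, adjusted p = 0.0278). It was chosen after its values were seen, and it missed the threshold among regions of stable covered length fitted alone (0.14, adjusted p = 0.327). The region 28.8 kb downstream fell by 0.91 on the log2 scale (SE 0.167, adjusted p = 0.0109) at covered lengths within 1.5 times.

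Of the 3 cytoskeletal genes 1 fell, beside 22.8% of all windows. NEFL, the light neurofilament subunit, fell by 0.48 on the log2 scale (SE 0.0926, adjusted p = 0.0152), and its start-site region by 0.50 (SE 0.104, adjusted p = 0.0152). NEFM, the medium subunit, was at 25.0 and 24.5 CPM at E18 and 24.0 and 19.1 at E28, a change of -0.27 that did not pass (SE 0.117, adjusted p = 0.119). STMN2, a tubulin-binding protein of growth cones (chr4:56952968-57006744), had 14 and 16.7 CPM at E18, 34.2 and 24.6 at E21 and then 19.4 and 18.9 at E28. Both E21 libraries were above the other 4. The change from E18 to E21 was 0.91 (SE 0.189), which did not pass after adjustment (adjusted p = 0.0723) but was called by DESeq2. At its start-site region the change from E18 to E28 was 0.02 (SE 0.243, adjusted p = 0.955), and at its intronic region of stable covered length, 42.9 kb downstream, 0.22 (SE 0.464, adjusted p = 0.730). STMN2 was also the only member with more covered length at E28 than at E18.

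Among the vesicle and adhesion genes 4 of 6 fell, beside 22.8% of all windows. SNAP25, a SNARE protein of synaptic vesicle fusion, had 72.2 and 76.7 CPM at E18, 68.5 and 71.6 at E21 and then 46.7 and 37.5 at E28, a change of -0.89 from E18 to E28 (SE 0.115, adjusted p = 0.00685). Its start-site region stayed between 11.3 and 19.9 CPM in all libraries, with a change of -0.02 (SE 0.253, adjusted p = 0.960). The other shared region, which holds the RE1 core and has its middle 45.1 kb downstream, fell. It went from 42.0 and 41.2 CPM at E18 through 41.0 and 38.0 at E21 to 28.5 and 23.4 at E28 (change of -0.74, adjusted p = 0.00541), with covered length of 2917 and 2847 bases at E18 and 1836 and 1946 at E28 and an offset value of -0.13 (adjusted p = 0.403). The remaining loss of the SNAP25 window lay in peaks that not every library had.

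The neurexins are presynaptic adhesion proteins that bind neuroligins across the cleft. NRXN2 (chr2:7454771-7554180) fell from 108 and 107 CPM at E18 through 98.4 and 72.9 at E21 to 46.6 and 37.7 at E28, and NRXN3 from 253 and 289 CPM to 212 and 208 and then 140 and 132.5. The groups did not overlap in either gene. The changes from E18 to E28 were -1.42 (SE 0.117, adjusted p = 0.00359) and -1.05 (SE 0.0867, adjusted p = 0.00359). NRXN3 has the longest window, 1649 kb, and of its 25 shared regions 4 were higher and 3 lower at E28, beside 19% higher and 18.1% lower of all shared regions. Its start-site region had 8.2 and 9.53 CPM at E18, 4.83 and 4.33 at E21 and then 2.83 and 1.58 at E28, a change of -2.10 (SE 0.331, adjusted p = 0.00742) that remained with the offset (-0.61, adjusted p = 0.0348). The start-site region of NRXN2 changed by -1.26 (SE 0.436, adjusted p = 0.0675). Of the regions of stable covered length, the one with the largest change did not pass in either gene, at 1.0 for NRXN3 (SE 0.347, adjusted p = 0.0684) and 0.03 for NRXN2 (SE 0.247, adjusted p = 0.936). The NRXN3 region 1191 kb downstream of the start, chosen after its values were seen, rose from 0.646 and 0.184 CPM at E18 through 5.44 and 6.52 at E21 to 7.58 and 11.06 at E28. It was not of stable covered length, and the part of covered length in the rise was not tested.

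Synapsins coat synaptic vesicles. SYN2 fell by 0.39 on the log2 scale (SE 0.105, adjusted p = 0.0355) and SYN3 changed by 0.04 (SE 0.0740, adjusted p = 0.676). The start-site region of SYN2 changed by -0.45 (SE 0.149, adjusted p = 0.0606), and passed among regions of stable covered length fitted alone (-0.69, adjusted p = 0.00602). Within SYN3, 10 of 37 shared regions rose and 9 fell, beside 19% higher and 18.1% lower of all shared regions. An intronic region 189 kb downstream of its start, chosen after its values were seen, rose from 0.661 and 1.31 CPM at E18 through 3.20 and 2.61 at E21 to 18.3 and 20.5 at E28. This region was not of stable covered length, and the part of covered length in the rise was not tested. Among SYN3 regions of stable covered length the largest change was at an intronic one 19.9 kb downstream, which rose from 1.39 and 2.31 CPM at E18 through 3.17 and 4.58 at E21 to 7.49 and 14.1 at E28 (2.47, SE 0.264, adjusted p = 0.00346). Both windows hold a metalloproteinase inhibitor gene, TIMP3 in SYN3 and TIMP4 in SYN2, and a peak inside cannot be assigned to host or guest. The SYN2 region with the largest change at stable covered length, chr13:68190138-68191689, overlapped an exon of TIMP4 and fell from 17.8 and 17.8 CPM at E18 to the E28 values of 9.17 and 5.40 (-1.39, SE 0.233, adjusted p = 0.00862). SYT1, the calcium sensor of vesicle release, did not pass over its window (-0.16, SE 0.109, adjusted p = 0.279), but its start-site region fell by 0.49 (SE 0.126, adjusted p = 0.0288). Of its 10 shared regions 2 rose and 2 fell, near the shares over all shared regions. An intronic region of stable covered length 204 kb downstream rose from 3.31 and 2.21 CPM at E18 through 7.70 and 5.75 at E21 to 5.49 and 11.6 at E28 (1.57, SE 0.472, adjusted p = 0.0457), and it also passed among regions of stable length fitted alone (1.33, adjusted p = 0.0205).

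The transmitter genes held the member window with the largest change. CHAT, which makes acetylcholine and marks motor neurons (chr14:90117464-90167611), had 22.2 and 28.6 CPM at E18, 16 and 9.62 at E21 and then 1.17 and 0.639 at E28. The stages followed each other without overlap, and the E28 libraries held 105 and 63 counts against 2955 and 3572 at E18. Over the window the mean E28 level was 0.0355 of that at E18, with a log2 fold change of -4.95 (SE 0.379, adjusted p = 0.00344). Covered length went from 7792 and 8710 bases to 352 and 264. Per covered base no difference from 0 was detected (offset value -0.17, adjusted p = 0.516), while the median of all windows was at 0.53. The start-site region of CHAT, which overlaps exons of both CHAT and SLC18A3, had 18.8 and 21.8 CPM at E18, 16.5 and 11.7 at E21 and then 2.75 and 1.28 at E28 (-3.47, SE 0.340, adjusted p = 0.00313, and -0.14 with the offset). SLC18A3, the vesicular acetylcholine transporter, lies in the same locus. At E18 its window held 18.8 and 21.8 CPM, the same values as that region, and at E28 1.58 and 0.639 CPM. The region held more than the CHAT window at E21 and E28, so some of its peaks then lay outside that window. Window and region thus differ in the stretch counted per library, and the change was smaller over the region. The SLC18A3 window, from the other transmitter genes, fell by 4.37 (SE 0.423, adjusted p = 0.00428, and -0.11 with the offset). The values of the pair are not independent.

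GAD1 and GAD2 make GABA from glutamate and SLC32A1 loads GABA and glycine into vesicles. GAD2 (chr10:49316682-49391013) had 47.7 and 50.5 CPM at E18, 39.6 and 29.1 at E21 and then 16 and 13.8 at E28, a change of -1.79 (SE 0.149, adjusted p = 0.00359). MYO3A overlaps the GAD2 window. GAD1 (chr15:76991863-77034819) had 46.1 and 45.0 CPM at E18, 37.4 and 25.3 at E21 and then 21.2 and 22.7 at E28, a change of -1.11 (SE 0.185, adjusted p = 0.0110). In both genes the 3 stages did not overlap. SLC32A1 fell by 0.79 (SE 0.153, adjusted p = 0.0152), with E21 and E28 overlapping. The start-site regions of all 3 fell, that of GAD1 by 1.08 (SE 0.169, adjusted p = 0.00741), that of GAD2, which reaches an exon of MYO3A, by 1.32 (SE 0.189, adjusted p = 0.00599) and that of SLC32A1 by 0.54 (SE 0.165, adjusted p = 0.0480). None was called lower with the offset (-0.26, 0.35 and 0.17).

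Neither vesicular glutamate transporter passed the test. SLC17A6 (VGLUT2) had 12.6 and 14.5 CPM at E18, 23.7 and 16.9 at E21 and then 14.6 and 16.7 at E28, so the E21 libraries were highest, and its change from E18 to E28 was 0.15 (SE 0.211, adjusted p = 0.578). SLC17A7 (VGLUT1) had 65.5 and 58.6 CPM at E18, 51.2 and 50.2 at E21 and then 56.9 and 54.5 at E28, a change of -0.21 (SE 0.0832, adjusted p = 0.0933) that DESeq2 called. Its start-site region showed 0.11 (SE 0.105, adjusted p = 0.425). The difference between glutamate and GABA genes was not tested.

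Of the 6 receptor and kinase genes 5 fell, beside 22.8% of all windows. GRIN2A and GRIN2B encode NMDA receptor subunits, and changed by -0.90 (SE 0.146, adjusted p = 0.0103) and -0.59 (SE 0.100, adjusted p = 0.0116). Of the 9 shared regions of GRIN2B 3 fell and 1 rose, beside 18.1% lower and 19% higher of all shared regions. The GRIN2B region that rose is exonic, of stable covered length and 3.05 kb downstream of the start. It had 17.0 and 17.0 CPM at E18, 26.2 and 22.9 at E21 and then 32.6 and 21.1 at E28 (0.58, SE 0.168, adjusted p = 0.0414), and it missed the threshold among regions of stable length fitted alone (0.34, adjusted p = 0.114). In GRIN2A neither the start-site region (-0.34, SE 0.171, adjusted p = 0.163) nor the region of largest change at stable covered length (-0.50, SE 0.368, adjusted p = 0.320) passed. GRIA1 and GRIA2 encode AMPA receptor subunits. GRIA1 had 86.4 and 103 CPM at E18, 66.2 and 62.0 at E21 and then 55 and 76.0 at E28, a change of -0.59 (SE 0.152, adjusted p = 0.0318), and its E21 and E28 libraries overlapped. Of its 6 shared regions 1 fell and 1 rose, beside the same shares of all shared regions. The one that rose is intronic, 235 kb downstream and of stable covered length, with 2.07 and 1.62 CPM at E18, 3.05 and 5.63 at E21 and then 6.03 and 4.53 at E28 (1.46, SE 0.417, adjusted p = 0.0395, and 1.22 with adjusted p = 0.0176 among stable regions alone). The GRIA1 start-site region changed by -0.18 (SE 0.266, adjusted p = 0.625). GRIA2 (chr8:46078122-46247144) had 27.8 and 30.4 CPM at E18, 45.2 and 42.2 at E21 and then 42.6 and 30.8 at E28. All later libraries were above both E18 libraries, yet the change from E18 to E28 was 0.26 (SE 0.149, adjusted p = 0.209).

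CAMK2A and CAMK2B encode the calcium and calmodulin dependent kinase of the postsynaptic density, and CAMK2B is also expressed in muscle. Their windows fell by 0.52 (SE 0.0777, adjusted p = 0.00888) and 0.61 (SE 0.0912, adjusted p = 0.00888). The start-site region of CAMK2A, chr2:151352575-151354083, went the other way, from 2.5 and 2.40 CPM at E18 through 6.34 and 6.34 at E21 to 5.46 and 7.73 at E28 (1.37 on the log2 scale, SE 0.285, adjusted p = 0.0158). Its E18 libraries were below the other 4, and it was the only start-site region of a member that rose. With promoters alone, the sum of all peaks overlapping the 2 kb upstream, CAMK2A was called lower from E18 to E28 and from E21 to E28. The CAMK2A region of largest change at stable covered length did not pass (0.37, SE 0.246, adjusted p = 0.279). At CAMK2B the start-site region fell by 1.06 (SE 0.223, adjusted p = 0.0163), while the region 29 kb downstream rose from 1.90 and 2.0 CPM to 5.59 and 6.33 at stable covered length (1.56, SE 0.326, adjusted p = 0.0157).

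SLC12A5 encodes KCC2, the potassium chloride cotransporter that keeps chloride low in mature neurons. Its window (chr17:48192072-48230674) had 72.8 and 72.8 CPM at E18, 56.0 and 46.6 at E21 and then 41.6 and 34.6 at E28. The stages did not overlap and the change from E18 to E28 was -1.0 (SE 0.095, adjusted p = 0.00418). With the offset it was -0.60 (adjusted p = 4.01e-04), against a median of 0.53 for all windows. The fall was largest at the start site. That region, chr17:48191715-48193567, contains the upstream sequence printed above and went from 33.5 and 35.0 CPM at E18 through 17.1 and 12.4 at E21 to 8.6 and 8.07 at E28. Its covered length was 1853 and 1803 bases at E18 and 1633 and 1662 at E28, so nearly the same sequence was counted. The log2 fold change was -2.09 (SE 0.170, adjusted p = 0.00273), or -1.94 with the offset. The RE1-holding region 7.69 kb downstream had 14.3 and 14 CPM at E18, 16.6 and 14.7 at E21 and then 13.2 and 13 at E28, a change of -0.16 (SE 0.162, adjusted p = 0.472). Of the 6 shared regions of the gene, 3 fell and 0 rose, beside 18.1% lower and 19% higher of all shared regions.

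**Figure D3:**
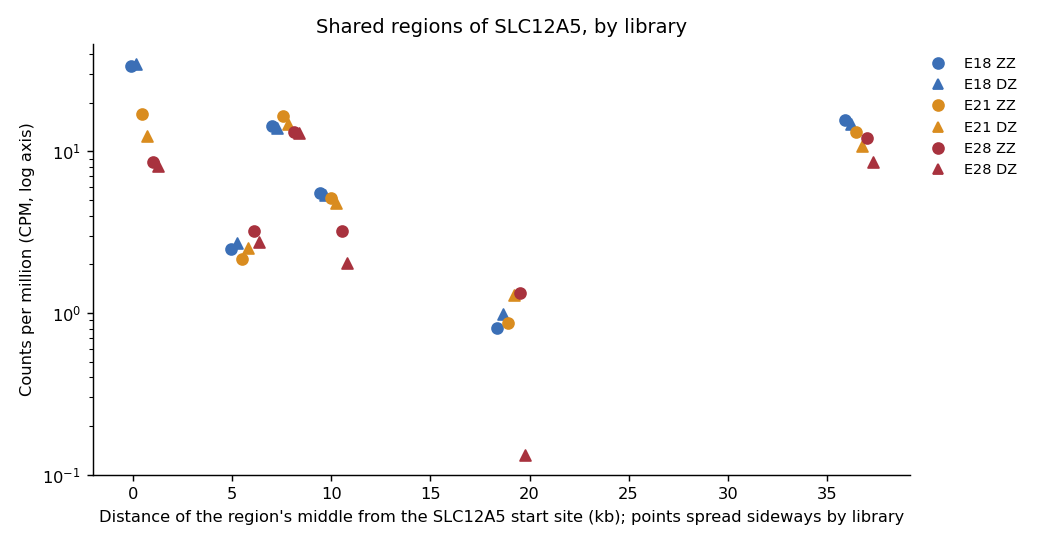
CPM (log axis) of the 6 shared regions of SLC12A5 against the distance of their middle from the start site, 1 point per library, coloured by stage and shaped by breed and spread sideways for legibility. At the start site the stages separate, from 33.5 and 35.0 CPM at E18 to the E28 values of 8.6 and 8.07, while the RE1-holding region at 7.69 kb stays between 13 and 16.6.

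The voltage-gated channels were mixed. CACNA1A, the pore of the P/Q-type calcium channel, fell by 0.57 (SE 0.148, adjusted p = 0.0323), its start-site region by 0.93 (SE 0.225, adjusted p = 0.0245), and a region 102 kb downstream of its start fell by 1.10 at stable covered length (SE 0.189, adjusted p = 0.00926). The sodium channel genes SCN2A and SCN3A, neighbours on chromosome 15, had levels from 4.56 to 7.86 CPM and from 0.446 to 6.80 CPM over the 6 libraries. SCN2A changed by 0.01 (SE 0.400, adjusted p = 0.985), and its region of stable covered length by 0.21 (SE 0.271, adjusted p = 0.569). SCN3A changed by -1.98 with an SE of 0.951 (adjusted p = 0.149), and its E28 libraries held 2.65 CPM in ZZ and 0.446 in DZ. Its start-site region changed by -1.15 (SE 0.637, adjusted p = 0.202). ISL1, a LIM homeodomain factor of motor and sensory neurons, had 49.0 and 47.0 CPM at E18, 45.4 and 40.8 at E21 and then 38.9 and 40.0 at E28. It passed narrowly (-0.34, SE 0.0991, adjusted p = 0.0447), and its start-site region did not (-0.21, SE 0.113, adjusted p = 0.197).

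**Figure D4:**
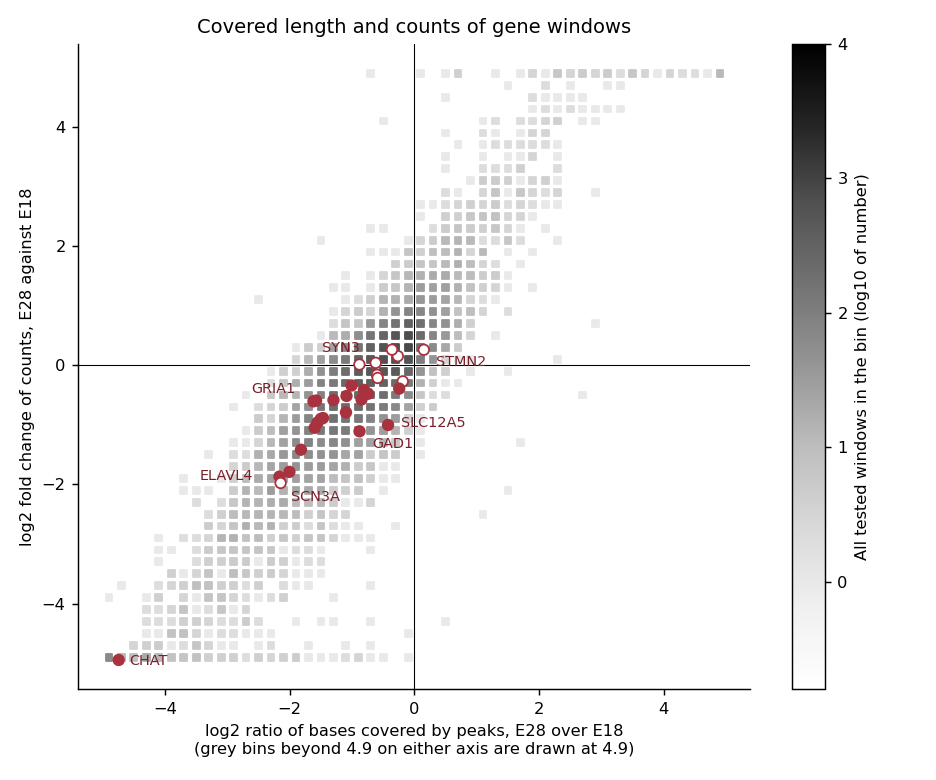
The log2 ratio of covered length and the log2 fold change of counts from E18 to E28 for the 29 member windows (circles, filled where called) over the density of all tested windows (grey squares, log10 scale). Counts and covered length fell together in the cloud of windows, with CHAT at the lower left, and SLC12A5 and GAD1 lie below the middle of the cloud at their covered length.

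Shared regions allowed the same places to be compared in every library. Member windows contained 783 of 294825 regions, of which 191 were shared. Peaks of E18 alone made up 210 member regions (26.8%, against 24.8% of all regions) and peaks of E28 alone 45 (5.75%, against 7.38%). From E18 to E28 58 of the 191 shared regions fell and 26 rose, while of all shared regions 37.1% were called, 18.1% lower and 19% higher. With covered length as an offset the split was 16 lower and 65 higher, while over all shared regions 6.44% were lower, 45.3% higher and the median was 0.42. Without the E18 ZZ library 43 regions were called, beside 20.9% of all, and without E18 DZ 22, beside 10.5%. Of the 24 members whose start site lay in a shared region, 13 fell at it, 1 rose and the median change was -0.56, while of 11806 shared regions that hold a start site of a protein-coding gene 15.4% fell, 25.6% rose and the median was 0.10. Over the 58 member regions whose covered lengths at E18 and E28 stayed within 1.5 times, 6 fell (10.3%) and 10 rose (17.2%), while of all 30169 such regions 4.58% fell and 23.9% rose. The median change was 0.12 over the former and 0.27 over the latter. When only regions of such stable length were fitted, 11 member regions fell and 9 rose, beside 14.4% lower and 17.3% higher over all of them.

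Of the 6 regions with an RE1 core in member windows only that of SNAP25 passed. The GRIA2 region, which holds its start site, had 25.0 and 27.1 CPM at E18, 40.5 and 37.2 at E21 and then 39.1 and 28.8 at E28, a change of 0.32 (SE 0.138, adjusted p = 0.121). That of NEFM changed by -0.26 (SE 0.135, adjusted p = 0.175; -0.51 and adjusted p = 0.0142 among stable regions alone), that of SLC17A6 by 0.21 (adjusted p = 0.617) and that of CACNA1A by -0.77 (adjusted p = 0.157). Over all 462 shared regions with a core, 71 fell (15.4%) and 13 rose (2.81%), with a median of -0.27. The window of REST, named for the motif and not by the rule for other lists, changed by -0.09 (SE 0.102, adjusted p = 0.474). With the offset the REST window changed by 0.78 (adjusted p = 7.52e-05), against a median of 0.53 for all windows.

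**Figure D5:**
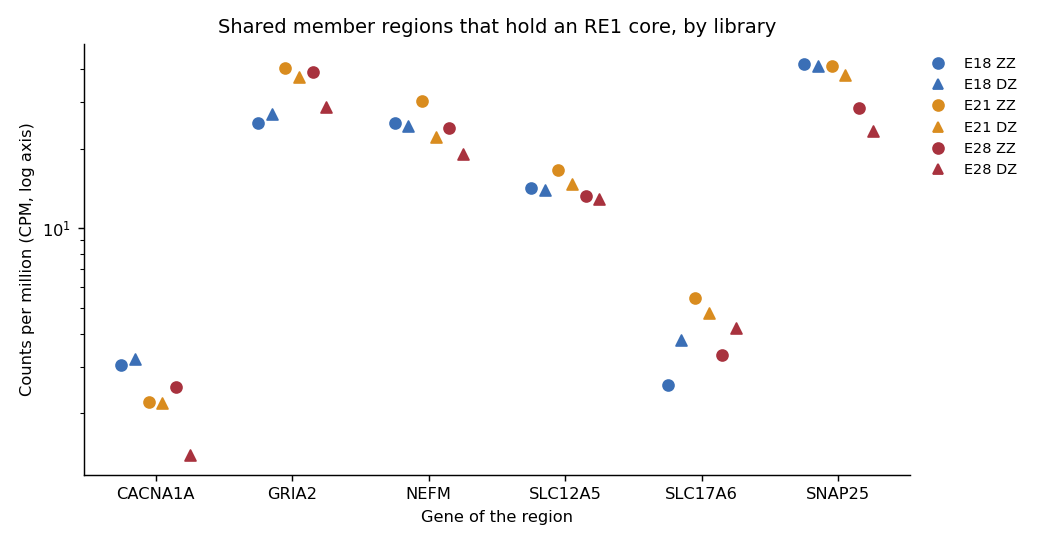
CPM (log axis) of the 6 shared member regions that hold an RE1 core, 1 point per library, coloured by stage and shaped by breed. The E28 points of SNAP25, 28.5 and 23.4 CPM, lie below its other 4 libraries, and in GRIA2 both E18 points lie lowest.

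Between E18 and E21 0 of the 29 member windows were called, with 2.24% of all windows called, 1.41% lower and 0.835% higher. At an unadjusted p under 0.05 there were 17, beside 28.6% of all windows. DESeq2 called 17 at adjusted p under 0.05, beside 34.3% of all windows, and of the 17 members 14 were lower and STMN2, SLC17A6 and GRIA2 higher. The smallest edgeR adjusted p was 0.0595, for SLC12A5 (log2 fold change -0.53, SE 0.0942). Among shared member regions 7 fell and 3 rose, with 6.47% of all shared regions called, 1.68% lower and 4.78% higher. This count of 10 became 0 or 1 without any E18 or E21 library, 43 without E28 ZZ and 45 without E28 DZ, beside 21.3% and 21.7% of all shared regions. From E21 to E28 7 windows fell and 0 rose, namely ELAVL3, ELAVL4, SNAP25, NRXN2, NRXN3, GAD2 and CHAT, with 6.52% of all windows called, 5.50% lower and 1.03% higher. This count became 0 without the E21 ZZ library and 1 without E21 DZ (0.141% and 0.405% of all windows), and DESeq2 called 18, beside 34.8% of all windows. Of the shared regions 19 fell and 5 rose, with 7.04% called over all, 4.56% lower and 2.48% higher, and this count of 24 became 0 without either E21 library, 12 without E18 ZZ, 10 without E18 DZ and 55 without E28 ZZ (4.88%, 4.47% and 20.6% of all shared regions). For CHAT the change was -1.08 (SE 0.320, adjusted p = 0.114) from E18 to E21 and -3.87 (SE 0.361, adjusted p = 0.0180) from E21 to E28. For ELAVL4 it was -0.34 (SE 0.0812, adjusted p = 0.0866) and then -1.53 (SE 0.0834, adjusted p = 0.00711). These comparisons share the E21 libraries.

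The breeds were compared over the stages. None of the 29 member windows passed with edgeR (0 called, 1 at an unadjusted p under 0.05) or with DESeq2 (0 called, 3 at an unadjusted p under 0.05), and over all windows 0.00435% were called by edgeR, 5.22% had an unadjusted p under 0.05, and DESeq2 called 2.29%, with 14.3% at an unadjusted p under 0.05. The 3 ZZ and 3 DZ libraries overlapped for every member. The smallest unadjusted p was that of NEFL, 31.6 CPM on average in ZZ and 27.1 in DZ (log2 fold change DZ against ZZ -0.20, SE 0.0754, adjusted p = 0.819). Values ranged from -0.39 (SCN3A) to 0.24 (GRIA1), and 22 of 29 were below 0. The median was -0.06 over the members and 0.003 over all windows, and this difference was not tested. Of shared member regions 0 were called (5 at an unadjusted p under 0.05, and with DESeq2 0 and 7), as were 0% of all shared regions, of which 4.91% had an unadjusted p under 0.05 with edgeR. DESeq2 called 0.202% of all shared regions, with 6.51% at an unadjusted p under 0.05. With 1 library per stage and breed a difference of breeds within a stage could not be tested.

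Other neuronal genes of the same roles, listed with earlier results known, were read beside the members. From E18 to E28 33 of 72 fell, 10 rose and 29 did not pass, with a median of -0.44, beside 22.8% lower and 19.2% higher of all windows. By role, 4 of 6 RNA-binding, 5 of 12 cytoskeletal, 6 of 15 vesicle, 6 of 11 transmitter, 8 of 18 receptor and scaffold and 4 of 10 channel genes fell, and 1, 2, 5, 0, 2 and 0 rose. The splicing factor NOVA2 changed by -1.69 (SE 0.163, adjusted p = 0.00425), the SNARE protein STX1A by -1.76 (SE 0.102, adjusted p = 0.00264) and the noradrenaline enzyme DBH by -1.92 (SE 0.147, adjusted p = 0.00344). With the offset NOVA2 turned to 0.54 (adjusted p = 0.00336), while STX1A (-0.10) and DBH (0.14) were not called. DCX, a microtubule protein of migrating neurons, rose from 49.1 and 56.4 CPM at E18 to the E28 values of 74.8 and 88.6 (0.57, SE 0.0859, adjusted p = 0.00888). With the offset 0 of the 72 fell and 48 rose, beside 2.29% and 65.0% of all windows.

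Marker lists of cells that dissected somites could carry are read beside 22.8% lower and 19.2% higher of all windows from E18 to E28. Of 8 neural progenitor windows 6 fell and 0 rose, and the summed level went from 452 and 509 CPM at E18 through 461 and 416 at E21 to 238 and 266 at E28, with no marker at 0. HES5, a Notch target of neural progenitors, had 77.5 CPM in both E18 libraries, 82.4 and 79.2 at E21 and then 7.30 and 6.46 at E28 (-3.56, SE 0.0869, adjusted p = 0.00194, and -1.18 with the offset). With the offset 3 of the 8 were lower and 2 higher, with a median of -0.15, beside 2.29% lower and 65.0% higher of all windows. In 7 motor neuron factor windows 3 fell, among them MNX1 with a change of -1.51 (SE 0.0905, adjusted p = 0.00264) and OLIG2 with -1.0 (SE 0.0965, adjusted p = 0.00428). With the offset MNX1 turned to 0.55 (adjusted p = 0.00183) and OLIG2 was at -0.60 (adjusted p = 0.00104), against a median of 0.53 for all windows. Of 6 tested crest and glia windows 1 fell and 0 rose. Of 7 endothelial windows 4 fell and 1 rose. Of 9 fibroblast and mesenchyme windows 6 rose and 1 fell, and of 8 housekeeping windows 4 rose and 0 fell. With the offset 0 of 5 crest and glia windows were lower and 4 higher, and 0 of 7 endothelial windows lower and 3 higher. On that scale 9 fibroblast and mesenchyme and 6 housekeeping windows were higher, with 0 lower in both lists. The summed levels of the endothelial list were 346 and 366 CPM at E18 and 336 and 327 at E28. The part of these cells in the member values was not tested.

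Cells were grouped by how many of the windows of ELAVL2, ELAVL3, ELAVL4 and STMN2 held a cut site. The 3 ELAVL windows had fallen from E18 to E28, and a cut site exists only inside a called peak. A lower share of cells with several of these windows at E28 therefore repeats that fall and is no separate result. Cells with 3 or 4 of the windows made up 6.02% and 7.31% of kept cells at E18, 8.81% and 6.03% at E21 and then 1.40% and 1.92% at E28. These cells were deeper, with a median of 16390 against 8845 counts in E18 ZZ, so each cell was also thinned to 2000 fragments (cut sites of a peak taken in pairs, an odd one counting as a fragment). Cells with fewer fragments were left out, 421 and 525 at E18, 569 and 1197 at E21 and then 1385 and 1540 at E28, so the thinned values cover fewer of the kept cells at later stages. Thinning evens out depth and not the covered length of the windows. Only 2 to 55 cells per library then had 3 or 4 of the windows, 0.388% and 0.356% at E18, 0.631% and 0.344% at E21, then 0.125% and 0.0253% at E28. Compared with cells that had none, and with all kept cells used at their own depth, their CPM at the other members was 1.07 times as high in the median library (range 0.990 to 1.14), beside 1.0 for housekeeping windows and 1.13 for neural progenitor markers. With thinned cells these ratios were 1.17 (range 0.901 to 1.56), 0.939 (range 0.436 to 1.19) and 1.12 (range 0.865 to 1.27). At full depth the median ratios of the single members ran from 0.903 (SYN3, range 0.821 to 1.07) to 1.82 (CHAT, range 0.828 to 3.08). SLC17A7 was below 1 in all 6 libraries (median 0.956, range 0.902 to 0.998), and the next highest medians after CHAT were 1.45 for SLC17A6 (range 0.901 to 1.53) and 1.44 for NRXN2 (range 1.08 to 1.97). After thinning, the cells with 3 or 4 of the windows held 0 to 4 fragments per library at CHAT, 0 to 3 at SLC17A6 and 1 to 19 at NRXN2, too few to compare these genes.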

How the data were processed

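Open chromatin was measured by scATAC-seq in 6 pig libraries, 1 per stage and breed. The authors aligned the reads and counted Tn5 cut sites per called peak and cell barcode with Cell Ranger ATAC (1.2.0 in the file header), calling peaks separately in each library, and deposited these raw counts. The labels also list Seurat 3.1.1 and Signac 0.2.2.

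Barcodes with 2000 to 30000 counts were kept (58809 of 64439, 91.3%), and 89816504 to 133037579 counts remained per library. Counts were summed per gene window, with 1 base of overlap counting, and per region of merged peaks. No doublet caller was run. Sums were tested with edgeR 4.0.16 (R 4.3.3; TMM, filterByExpr, quasi-likelihood, stage plus breed, 2 residual degrees of freedom) and adjusted by Benjamini-Hochberg over all windows or regions. The test was checked on simulated data. Alternatives were DESeq2 1.42.0, other scalings and filters, covered length as an offset, other peak sets and leaving out each library.

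All members with a window are named, with their start-site region and the region of largest change among those with covered lengths within 1.5 times. Of other lists at most 3 genes with the smallest adjusted p are named, apart from REST. Some genes of these lists are not reported here. The members and lists were chosen with earlier results of these data known. Sequences come from RefSeq, Sscrofa11.1. Intervals across animals could not be given, since embryos were pooled.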

Additional observations from a re-analysis of the deposited data

Results flagged for a closer look

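In 3 member windows the log2 ratio of CPM, E28 over E18, had opposite signs in the breeds, and with 1 library per stage and breed the difference was not tested. For SYT1 it was -0.22 in ZZ and 0.01 in DZ. For SYN3 it was 0.22 in ZZ and -0.02 in DZ. For SCN2A it was 0.56 in ZZ and -0.35 in DZ.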

How the results depend on the processing

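Of the 20 members called lower at E28 than at E18, ELAVL4, GAD2, NRXN3 and SLC12A5 kept their call under every alternative but the offset, and SLC12A5 under the offset too. With covered length as an offset, changes from E18 to E28 that were called in at least one of the fits turned positive for ELAVL2 (0.39), ELAVL3 (0.56), ELAVL4 (0.27), NEFL (0.24), SNAP25 (0.56), SYT1 (0.42), NRXN2 (0.39), NRXN3 (0.54), GAD2 (0.21), SLC17A7 (0.37), SLC32A1 (0.30), GRIN2A (0.58), GRIN2B (0.70), GRIA1 (0.98), CAMK2A (0.56), CAMK2B (0.98), CACNA1A (0.27) and ISL1 (0.69). From E21 to E28 they did so for ELAVL2 (0.34), ELAVL3 (0.37), ELAVL4 (0.29), SNAP25 (0.49), NRXN2 (0.35), NRXN3 (0.46), GAD2 (0.31), CHAT (0.041), GRIN2B (0.55), GRIA1 (0.71), CAMK2A (0.48), CAMK2B (0.75) and SCN2A (0.89), and from E18 to E21 for ISL1 (0.47). SCN3A also went from -1.98 to 0.17 between E18 and E28, with neither value called. The offset divides counts by covered length, which was shorter at E28. With it the median of all windows was 0.53 from E18 to E28, 0.34 from E21 to E28 and 0.17 from E18 to E21. A positive value can therefore lie below that of the median window.

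Member windows called from E18 to E28 numbered 12 with promoters alone (27.8% of all windows, 16.3% lower and 11.5% higher). Of the 20 members called over windows, 19 had promoter counts, of which 11 kept and 8 lost the call, and SYT1 was called in addition. Regions numbered 20 with covered lengths within 1.5 times, where 58 member regions were tested in place of 191 (31.7% called over all such regions). From E18 to E21, windows numbered 17 with DESeq2, 2 with the offset and 2 with shared regions alone (34.3%, 19.4% and 4.36% of all windows), and regions 31 with DESeq2, 33 with the offset and 1 within 1.5 times (18.1%, 18.1% and 1.0% of all). From E21 to E28, windows numbered 18 with DESeq2, 12 with the offset and 2 with promoters alone (34.8%, 42.7% and 2.58%), and regions 53, 52 and 9 with DESeq2, the offset and lengths within 1.5 times (19.7%, 31.1% and 6.16%). The cause was not tested.

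Leaving out each library gave 6 to 18 windows and 22 to 81 regions from E18 to E28, 0 to 4 and 0 to 45 from E18 to E21, and 0 to 8 and 0 to 55 from E21 to E28, with 0 between breeds. A stage left with 1 library was assumed to vary like the others. Without E28 ZZ or E28 DZ, 4 windows were called from E18 to E21, beside 9.88% or 11.2% of all. Breed was a term in the stage comparisons, and without it 20 were called from E18 to E28, beside 45.6% of all windows. Beyond breed, no paired analysis was possible because each stage and breed had 1 library and so no further replicate numbers. With 2 residual degrees of freedom and pooled embryos, spread between animals was not measured, and SCN3A, SCN2A and CHAT had the widest errors among member windows (SE 0.951, 0.400 and 0.379 on the log2 scale from E18 to E28).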
